A study of Homo sapiens with 12 samples.

Results

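PEG10 NC was compared to PEG10 gag-pol by RNA-seq in HEK293 cells, a human line derived from embryonic kidney. Each construct was measured in 3 replicate libraries, so that 6 of the 12 libraries in the series entered the comparison directly, as 3 pairs of the same replicate number. The genes compared were all 26484 genes of the count table other than *PEG10* itself, and 17175 of them passed a filter on low counts and were tested. The question asked was how far transcript levels differed between cells that received nucleocapsid alone and cells that received the whole polyprotein from which nucleocapsid can be cut. All cells carried the WT genotype of the line and were transiently transfected with 1 µg of plasmid per well and were harvested after 48 hr. The 4 groups received PEG10 gag-pol, PEG10 gag, PEG10 NC or, as the labels name the control, LifeAct-Dendra2, an actin-binding peptide fused to a fluorescent protein. The replicates were grown over 3 culture passages of the line. The model holds the replicate number as a term, so differences shared by all libraries of a number are taken out. The p-values of the main fit measure the spread that is left between libraries of the same cells. In bulk RNA of a transient transfection, a smaller share of transfected cells and a weaker change per cell cannot be told apart.

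*PEG10* is a domesticated retrotransposon gene, whose gag and pol reading frames are joined by a programmed ribosomal frameshift as in retroviruses. The pol part holds an aspartic protease with which gag-pol cleaves itself, and the gag part ends in nucleocapsid, a short stretch with a CCHC zinc finger that in retroviral proteins binds nucleic acid. The gene is imprinted, is expressed from the paternal allele and is needed for the placenta to form.

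The NC libraries held 34067636 to 41288987 counts on genes and the gag-pol libraries 38309038 to 45316749. Markers of HEK293 cells were present in all 6 libraries, with a summed normalized count of 36538 to 52825 with NC and 37300 to 57917 with gag-pol over 6 markers. Of the markers of other cell types, 4 of 5 for leukocytes, 3 of 3 for hepatocytes, 3 of 5 for fibroblasts, 2 of 4 for endothelium and 2 of 3 for muscle stayed under 20 raw counts in all 6 libraries. The rest did not, with raw counts of 32 to 236 for *CD14*, 644 to 1116 for *COL1A1* and 20 to 67 for *COL3A1*. They were 10 to 38 for *VWF*, 0 to 33 for *KDR* and 63 to 179 for *ACTA1*. The weakest HEK293 marker, *NEFM*, had 41 to 119. A normalized count is here the raw count scaled by the library's TMM-adjusted size to the mean of all library totals.

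*PEG10*, which is counted in all constructs together with the endogenous transcript, checked the labels. It took 7.35%, 3.48% and 2.80% of all counts in the 3 gag-pol libraries and 0.303%, 0.238% and 0.389% in the 3 NC libraries. All NC libraries were above the control libraries, at 0.0346%, 0.0341% and 0.0230%, and below the gag-pol libraries. The shares also compare constructs of different length, so they do not measure molecules on a common scale. The log2 difference in *PEG10* between NC and gag-pol was -3.85 (SE 0.43, adjusted p = 0.060 in edgeR).

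Paired NC and gag-pol libraries were more alike than replicates of the same construct. Over the 13419 genes with a mean of at least 1 log2 CPM (counts scaled to a common library size), *PEG10* included, the SD of the log2 difference between 2 libraries was 0.298, 0.283 and 0.225 for the NC and gag-pol libraries of replicates 1, 2 and 3. It was 0.344 to 0.462 between NC replicates and 0.313 to 0.422 between gag-pol replicates. The replicate 3 pair was the closest of all pairs of libraries in the series, and Spearman's rho between NC and gag-pol of the same number was 0.989 to 0.995 across genes. Libraries of the same number were also close between other constructs, at 0.262 to 0.296 for control and gag and at 0.255 to 0.345 for gag-pol and gag. The range was 0.340 to 0.380 for gag and NC, 0.262 to 0.397 for control and NC and 0.269 to 0.438 for control and gag-pol. NC replicate 1 was nearer to control replicate 1 (0.262) than to gag-pol replicate 1 (0.298). For gag-pol replicate 2, control replicate 2 (0.269) and gag replicate 2 (0.255) were nearer than NC replicate 2 (0.283). Closeness within a replicate number was thus not particular to NC and gag-pol. Replicate 3 of both constructs went against its number. NC replicate 3 was nearer to control replicate 2 (0.242) than to control replicate 3 (0.397) and nearer to gag replicate 2 (0.291) than to gag replicate 3 (0.340), and for gag-pol replicate 3 the values were 0.270 against 0.438 for control and 0.330 against 0.345 for gag.

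Most genes expressed well were held within a narrow range of no difference. The median log2 difference between NC and gag-pol was 0.018 and the median absolute log2 difference was 0.118 over the 17175 genes tested. The 95% interval of the log2 difference lay inside ±0.5, which is 1.41-fold, for 10715 genes (62.4%), inside ±0.25 for 3465 (20.2%) and inside ±1 for 13877 (80.8%). Among the 13418 genes with a mean of at least 1 log2 CPM the share inside ±0.5 was 79.9%, and among the 6848 genes with a mean of at least 5 it was 96.6%. None of the 3757 genes below 1 log2 CPM had an interval inside ±0.5 and 18% had one inside ±1, so that at this depth and number of replicates the data allow a difference of over 1.41-fold for each of them. An absolute log2 difference of at least 1 was seen in 386 genes, of which 8 reached a mean of 1 log2 CPM.

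**Figure D1:**
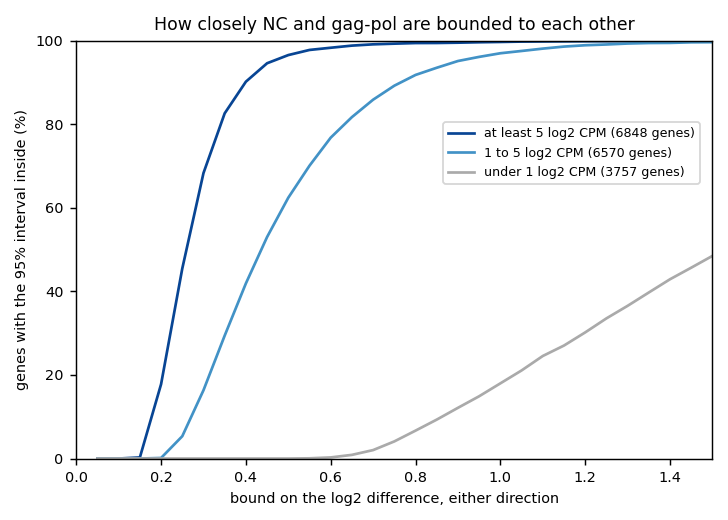
Share of genes (y axis, percent) whose 95% interval of the log2 difference between NC and gag-pol lies inside a bound in either direction (x axis), for genes with a mean of at least 5, 1 to 5 and under 1 log2 CPM. At a bound of 0.5 the curve of the best expressed genes stands at 96.6%, and that of the weakest genes at 0.

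A few genes separated the constructs. In the quasi-likelihood test of edgeR, adjusted after Benjamini and Hochberg over all genes, 15 of 17175 genes (0.0873%) differed between NC and gag-pol at an adjusted p-value under 0.05. Of these, 14 (0.0815%) were lower with NC and 1 (0.00582%) was higher. The same fit called 1941 genes (11.3%) between gag-pol and control, 1921 (11.2%) between NC and control and 185 (1.08%) between gag and control. It called 1109 (6.46%) between gag-pol and gag and 2897 (16.9%) between NC and gag. The gap between NC and gag-pol and the other pairs rested on single libraries. Without gag-pol replicate 3, edgeR called 280 genes between NC and gag-pol and 130 between gag-pol and gag. Without replicate 3 of all constructs these numbers were 532 and 633. Before adjustment, 1703 genes (9.92%) had a p-value under 0.05, 710 (4.13%) higher and 993 (5.78%) lower with NC. All 15 called genes had the same direction in the 3 pairs, and in 12 of them the NC and gag-pol libraries did not overlap. Over all genes tested, NC lay below gag-pol in every library for 709 (4.13%) and above it for 479 (2.79%).

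The number of calls moved with the tool and with single libraries. DESeq2 called 213 genes of the 22949 it tested, 74 higher (0.322%) and 139 lower (0.606%) with NC, which included all 15. Without the replicate number in the model edgeR called 0 genes, with 404 at an unadjusted p-value under 0.05, and it also called 0 between gag-pol and gag (917 at an unadjusted p-value under 0.05) and between NC and gag (1891), and 1 between gag and control. Without NC replicate 1 it also called 0, with 886 at an unadjusted p-value under 0.05, and without gag-pol replicate 1 it called 5. The number was 39 without NC replicate 2, 24 without NC replicate 3 and 280 without gag-pol replicate 3. It was 53, 9 and 63 without control replicates 1, 2 and 3, and 8 without gag replicate 2, libraries that enter only through the shared spread and the replicate term. Each of the 15 genes kept its direction under every alternative in which it was tested. *COL1A2* was not tested where at least 10 counts in every library were required. The genes were selected from these same libraries with 1 direction in all pairs, so a kept direction is no separate evidence.

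**Figure D2:**
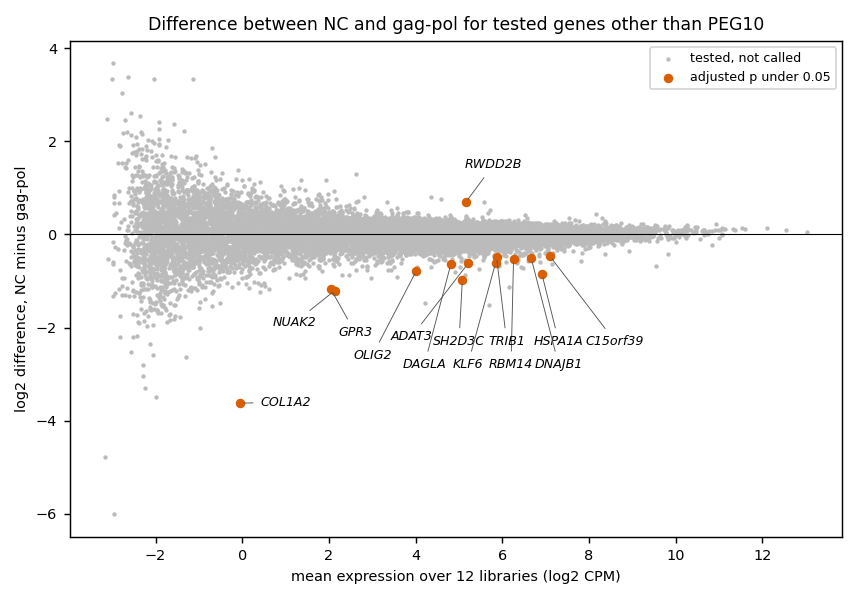
Log2 difference between NC and gag-pol (y axis, NC minus gag-pol) against mean expression over the 12 libraries (x axis, log2 CPM) for the tested genes, with 14 of the 15 called genes in orange. The spread narrows with expression, and the called genes shown lie below 0 except *RWDD2B*.

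The largest difference among the called genes belonged to a neighbor of *PEG10*. *COL1A2*, which encodes the alpha 2 chain of type I collagen, occupies 94394895 to 94431227 of chromosome 7 in GRCh38, on the strand of *PEG10* and 225 kb upstream of it. Its normalized count was 178, 128 and 61.0 with gag-pol and 6.15, 4.65 and 19.8 with NC, against 9.34, 8.87 and 9.68 in control cells. NC replicates 1 and 2 were below the control libraries and NC replicate 3 above them, and all were below the gag-pol libraries. The log2 difference was -3.62 (SE 0.48, adjusted p = 0.0031 in edgeR), from raw counts of 5 to 18 with NC. *CASD1*, a sialic acid O-acetyltransferase gene 99.3 kb upstream of *PEG10*, stood at 632, 397 and 408 with gag-pol and 340.4, 319 and 268 with NC. Its NC libraries were all lower, but the log2 difference of -0.61 did not pass the test (adjusted p = 0.19 in edgeR). *SGCE*, an imprinted gene that encodes epsilon-sarcoglycan and shares 219 exon bases with *PEG10* on the opposite strand, had a log2 difference of 0.22 (adjusted p = 0.42 in edgeR). The other neighbors tested, *PPP1R9A*, *PON2*, *PDK4* and *DYNC1I1*, lay between -0.23 and 0.38 and were not called, and 3 of the 10 neighbors listed were too weak to be tested.

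Genes of the heat shock response were among those lower with NC. *HSPA1A*, the stress-inducible HSP70 chaperone (chromosome 6, 31815543 to 31817946), had a normalized count of 10686, 6500.2 and 4506 with gag-pol and 4323, 4327 and 2832 with NC. Every NC library was below every gag-pol library, with a log2 difference of -0.86 (SE 0.13, adjusted p = 0.040 in edgeR). *DNAJB1*, the HSP40 partner that delivers substrates to HSP70 (chromosome 19, 14514769 to 14560391), stood at 5757, 4149 and 4187 with gag-pol and 3211, 3185 and 3365 with NC. The 3 NC libraries were nearly level with each other and below all gag-pol libraries, and the log2 difference was -0.52 (SE 0.095, adjusted p = 0.032 in edgeR). *HSPA1B*, whose sequence is nearly identical to that of *HSPA1A* so that reads of either can be counted for the other, differed by -0.68 on the log2 scale (adjusted p = 0.060 in edgeR). *DNAJB1* shares 300 exon bases with *TECR* on the opposite strand, which adds to the uncertainty of its count.

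The stretches in front of these genes are shown because heat shock factor is known to act through inverted GAA units close to the start. The 250 bases before the RefSeq start (GRCh38.p14) of *HSPA1A*, at chr6:31815293-31815542 on the forward strand, and of *DNAJB1*, at chr19:14518398-14518647 on the reverse strand, read as follows, with each match to GAANNTTC in capitals.
HSPA1A: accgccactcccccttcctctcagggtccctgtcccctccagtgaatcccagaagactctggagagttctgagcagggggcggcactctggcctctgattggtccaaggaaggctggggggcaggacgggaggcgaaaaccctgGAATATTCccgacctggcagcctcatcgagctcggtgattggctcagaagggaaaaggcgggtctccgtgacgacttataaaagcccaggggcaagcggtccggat
DNAJB1: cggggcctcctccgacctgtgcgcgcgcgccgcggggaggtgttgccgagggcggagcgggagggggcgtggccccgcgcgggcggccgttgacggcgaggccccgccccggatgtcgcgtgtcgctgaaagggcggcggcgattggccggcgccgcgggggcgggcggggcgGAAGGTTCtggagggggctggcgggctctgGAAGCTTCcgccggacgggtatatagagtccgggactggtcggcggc
*HSPA1A* held 1 match, from 106 to 99 bases before the start, and *DNAJB1* held 2, from 77 to 70 and from 47 to 40 bases before it. RefSeq promoters were found for 9 of the 15 called genes, with 15 promoters between them, and *HSPA1A* and *DNAJB1* had a match. Among all 35116 promoters of the table, 5.78% held the motif on either strand, which for this palindrome is the same search. That share counts promoters and not genes, and a gene can have more than 1 promoter, so it is not on the same scale as the count of called genes.

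Of the 20 heat shock genes listed, edgeR called 2 lower, against 0.0815% of all genes, and 0 higher, and 6 (30%) were lower at an unadjusted p-value under 0.05, against 5.78% of all genes, with a median log2 difference of -0.11 against 0.018 over all genes. The log2 differences of the 20 genes ran from -3.49 to 1.64, with 15 below 0 and 5 above. At an unadjusted p-value under 0.05 in edgeR, 0 were higher. The constitutive chaperones had log2 differences near 0, with *HSPA8* at -0.11, *HSP90AB1* at -0.02 and *HSPD1* at -0.01. *BAG3*, a co-chaperone of HSP70 in selective autophagy, stood at 3813, 3148 and 3288 with gag-pol and 2951, 2849.9 and 2773 with NC. Its groups did not overlap, but the log2 difference of -0.25 was not called (adjusted p = 0.22 in edgeR). The testis-enriched *HSPA1L* had raw counts of 20, 22 and 19 with gag-pol and 6, 0 and 0 with NC, and was not called (adjusted p = 0.14 in edgeR). DESeq2 called 4 of the 20 lower, *HSPA1L* and *HSPA1B* in addition to the 2 named first.

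Transcription factors and genes of the immediate early response made up a further group. *KLF6*, a zinc finger factor induced within minutes of many stimuli (chromosome 10, 3775996 to 3785281), had a normalized count of 3231, 2626 and 2563 with gag-pol and 1529, 1982 and 2031 with NC. All NC libraries were lower and the log2 difference was -0.61 (SE 0.11, adjusted p = 0.045 in edgeR). *TRIB1*, a pseudokinase that recruits a ubiquitin ligase to C/EBP factors, stood at 3598, 2801 and 2301 with gag-pol and 2062, 2283 and 1784 with NC. The lowest gag-pol library was just above the highest NC library, and the log2 difference was -0.49 (SE 0.10, adjusted p = 0.045 in edgeR). *OLIG2*, a basic helix-loop-helix factor of the oligodendrocyte and motor neuron lineages (chromosome 21, 33025935 to 33029196), stood at 980.0, 809.7 and 739 with gag-pol and 461, 514 and 488 with NC. The gap between the groups was wider than the spread among the NC libraries, and the log2 difference was -0.78 (SE 0.14, adjusted p = 0.023 in edgeR).

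Most of the immediate early list lay below gag-pol in NC cells, although few of its members passed the test over all genes. Of 29 genes, edgeR called 2 lower (*KLF6* and *TRIB1*) and 0 higher, and 19 (65.5%) were lower at an unadjusted p-value under 0.05, against 5.78% of all genes, and the median log2 difference was -0.39. The difference was below 0 for 27 of the 29. DESeq2 called 5 of the 29 lower, *EGR1*, *NR4A1* and *TNFAIP3* in addition to the 2 that edgeR called. *EGR1*, a zinc finger factor downstream of ERK, had the largest difference of the list, with 6426, 2213 and 1059 with gag-pol and 1446, 798 and 656 with NC. Its libraries overlapped between the groups and replicates of each construct differed widely, and the log2 difference of -1.51 had an SE of 0.44 and an adjusted p of 0.35 in edgeR. The AP-1 subunit *FOS* stood at 526, 316 and 236 with gag-pol and 175, 233 and 143 with NC (log2 difference -0.93, adjusted p = 0.50 in edgeR). For its partners, the log2 difference was -0.58 for *JUNB* (adjusted p = 0.47 in edgeR), -0.57 for *FOSB* (adjusted p = 0.48 in edgeR) and -0.41 for *JUN* (adjusted p = 0.37 in edgeR). The NC libraries of *FOS*, *JUNB* and *JUN* were all below the gag-pol libraries, and those of *FOSB* were not. The control means, given as levels, were above the NC means for *FOS* (268 against 184), *EGR1* (1752 against 966), *JUNB* (4441 against 3239), *FOSB* (407 against 262) and *JUN* (28630 against 27527). They were below the NC means for *KLF6* (1622 against 1847) and *TRIB1* (1572 against 2043). With gag-pol the mean was 4679 for *JUNB* and 373 for *FOSB*. With each library left out in turn, the number of members lower at an unadjusted p-value under 0.05 ran from 8 (without gag-pol replicate 1 or NC replicate 1) to 22 and the list's median from -0.44 to -0.28.

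The feedback inhibitors that ERK signalling induces had lower values with NC in part, again without a call in edgeR. Of 12 listed genes, edgeR called 0 and 6 (50%) were lower at an unadjusted p-value under 0.05, against 5.78% of all genes. The median log2 difference was -0.37. With each library left out in turn, the number lower ran from 4 to 7 and the median from -0.48 to -0.24. With each replicate number left out, the number ran from 1 to 7 and the median from -0.43 to -0.20. *DUSP6*, the phosphatase that inactivates ERK in the cytoplasm, stood at 381, 383 and 282 with gag-pol and 171, 286 and 208 with NC, with a log2 difference of -0.68 (adjusted p = 0.16 in edgeR). The Sprouty gene *SPRY2* had a log2 difference of -0.43, the only member that DESeq2 called, and *SPRED1* and *SPRED3* were at -0.05 and 0.01.

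**Figure D3:**
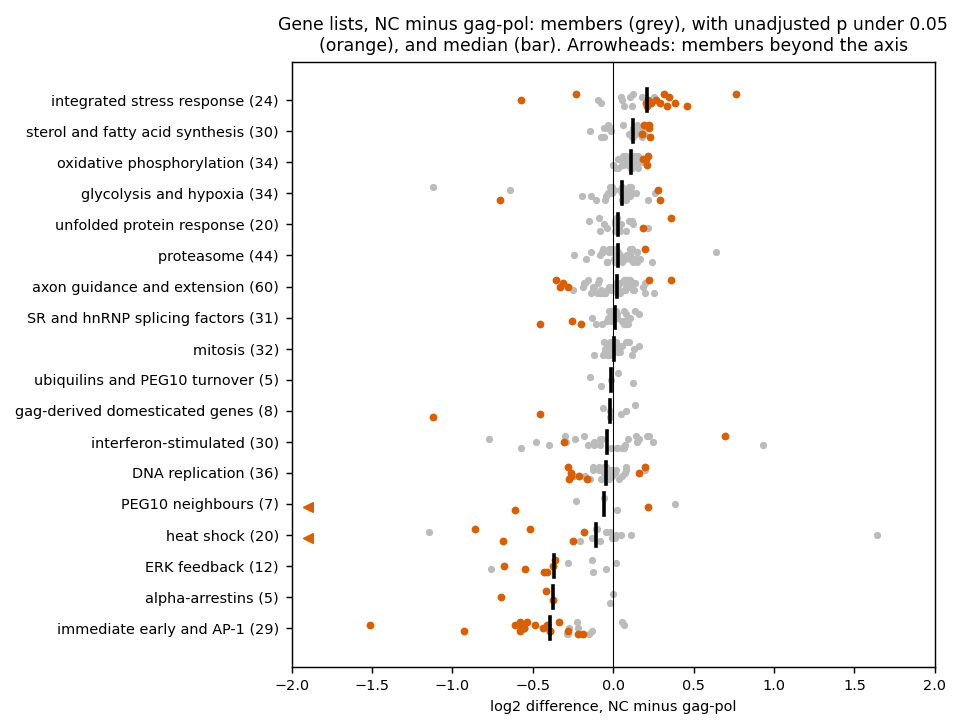
Log2 difference between NC and gag-pol (x axis) for the tested members of each gene list (rows, with the number tested), in orange where the unadjusted p-value is under 0.05, with the list's median as a bar. Immediate early genes lie to the left with a median of -0.39 and integrated stress response genes to the right with a median of 0.21, while the lists for mitosis and the proteasome center on 0.

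A receptor, a kinase and an adaptor were among the other called genes. *GPR3*, an orphan receptor that raises cyclic AMP without a ligand (chromosome 1, 27392622 to 27395814), had a normalized count of 215, 221 and 194 with gag-pol and 70.8, 105 and 105 with NC. The NC libraries were all lower, with a log2 difference of -1.18 (SE 0.23, adjusted p = 0.045 in edgeR). *NUAK2*, a kinase related to AMPK (chromosome 1, 205302063 to 205321745), stood at 263, 299 and 216 with gag-pol and 96.4, 117 and 123 with NC. Every gag-pol library was above every other library of the series, and the log2 difference to NC was -1.21 (SE 0.22, adjusted p = 0.023 in edgeR). *SH2D3C*, an adaptor that binds Cas family scaffolds (chromosome 9, 127738317 to 127778710), stood at 2115, 1803 and 1797 with gag-pol and 756, 964 and 1216 with NC. Its groups were well apart, with a log2 difference of -0.99 (SE 0.14, adjusted p = 0.0088 in edgeR).

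The promoter of *GPR3* is shown because, of the 9 called genes with a promoter in the RefSeq table, it was the only one with a match to the full cyclic AMP response element, TGACGTCA. The 250 bases before its RefSeq start, at chr1:27392372-27392621 on the forward strand of GRCh38.p14, read as follows with the match in capitals.
GPR3: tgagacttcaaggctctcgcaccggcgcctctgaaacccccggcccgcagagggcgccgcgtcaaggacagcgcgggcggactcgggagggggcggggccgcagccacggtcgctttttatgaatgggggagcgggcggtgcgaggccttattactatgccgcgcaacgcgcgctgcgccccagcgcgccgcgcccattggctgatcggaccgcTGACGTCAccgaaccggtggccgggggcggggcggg
The match lay from 36 to 29 bases before the start, and 1.65% of the 35116 promoters held this element on either strand. The shares here again count promoters and not genes. No called gene with a promoter in the table held the AP-1 site TGANTCA, which 6.57% of all promoters held, and none held sites of more than 1 of these motifs.

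*DAGLA*, the lipase that makes the endocannabinoid 2-arachidonoylglycerol (chromosome 11, 61680391 to 61747001), had a normalized count of 1802, 1268 and 1108 with gag-pol and 979, 901 and 760.3 with NC. All NC libraries were lower, with a log2 difference of -0.64 (SE 0.11, adjusted p = 0.019 in edgeR). *C15orf39* (chromosome 15, 75195643 to 75212169) had the smallest difference of the called genes and stood at 7591, 6620.2 and 5800.5 with gag-pol and 4585, 5126 and 4654 with NC. The groups did not overlap and the log2 difference was -0.47 (SE 0.084, adjusted p = 0.023 in edgeR).

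*RBM14* and *ADAT3*, which act on RNA, were also among the called genes. *RBM14*, a component of nuclear paraspeckles (chromosome 11, 66616626 to 66629934), stood at 4885, 4085 and 2832 with gag-pol and 2754, 2999.7 and 2334 with NC. Replicate 3 of gag-pol was below replicate 2 of NC, so the groups overlapped, while each pair of the same number differed in the same direction (log2 difference -0.53, SE 0.094, adjusted p = 0.023 in edgeR). *RBM14* shares 432 exon bases with the read-through gene *RBM14-RBM4* on the same strand, and reads there cannot be assigned with certainty. *ADAT3*, a subunit of the tRNA deaminase that makes wobble inosine (chromosome 19, 1905399 to 1913447), stood at 1733, 993 and 1675 with gag-pol and 909.5, 664 and 1362 with NC. Its groups overlapped through the low gag-pol replicate 2, and the log2 difference was -0.62 (SE 0.12, adjusted p = 0.045 in edgeR). *ADAT3* lies inside *SCAMP4* and shares 372 exon bases with it on the same strand.

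*RWDD2B* was the only gene called higher with NC. It lies on chromosome 21 from 29004384 to 29019360, and its normalized count was 1332, 691 and 716 with gag-pol and 2319, 1087 and 1099.7 with NC. Replicate 1 was high with both constructs, so the groups overlapped, while NC exceeded gag-pol by a log2 difference of 0.80, 0.65 and 0.62 in the 3 pairs (fitted difference 0.70, SE 0.10, adjusted p = 0.0031 in edgeR). The control libraries stood at 2191, 1125 and 1499.8 and the gag libraries at 2603, 1382 and 1360.4, so that gag-pol was the lowest construct within each replicate number.

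The calls rested most on the replicate 1 pair. All 15 called genes had their largest difference between NC and gag-pol in that pair, against 40.3% of the 13418 genes with a mean of at least 1 log2 CPM, and 0 had it in pair 2 or pair 3. The median absolute log2 difference of the 15 genes was 0.93, 0.59 and 0.54 in pairs 1, 2 and 3. *PEG10* itself differed most in pair 1 as well, by a log2 difference of -4.69, as compared to -3.86 in pair 2 and -2.90 in pair 3, and it took 7.35% of the counts of gag-pol replicate 1. The part of the *PEG10* level in these differences was not tested. Without NC replicate 1 the adjusted p-values of the 15 genes in edgeR ran from 0.092 for *SH2D3C* and *COL1A2* to 0.81 for *TRIB1*, with all directions kept. With each of the 12 libraries left out in turn, *RWDD2B*, *COL1A2* and *SH2D3C* stayed called in 11 fits, *DAGLA*, *OLIG2*, *RBM14* and *C15orf39* in 10, *NUAK2* and *DNAJB1* in 9, *TRIB1* in 7, *HSPA1A* in 6, *GPR3* in 5, *KLF6* in 4 and *ADAT3* in 3.

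**Figure D4:**
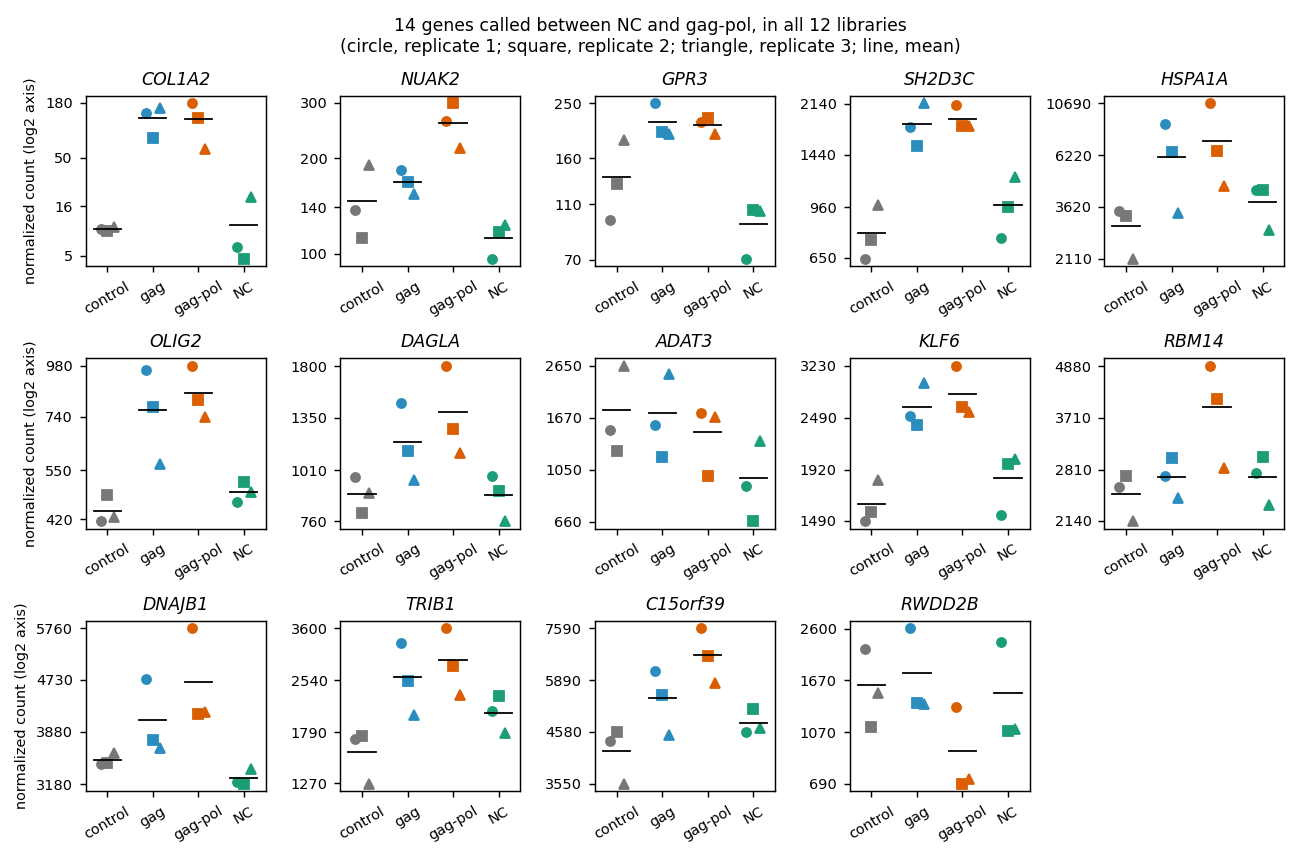
Normalized counts (y axis, log2 scale) of 14 of the 15 called genes in the 12 libraries by construct, with symbols for the replicate number and a line at each mean. Among the genes shown that were lower with NC, the gag-pol libraries lie above the NC libraries without overlap except for *RBM14* and *ADAT3*, and gag-pol is lowest for *RWDD2B* within each replicate number.

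The levels with the other constructs placed these differences. The comparison of gag with control shares no library with that of NC and gag-pol, although both come from 1 fit. Both also use the same estimate of each gene's spread, so a gene with a small spread is called more easily in both. The shares over all genes given here are thus no matched background for genes already called. Of the 14 genes lower with NC than with gag-pol, 7 were called higher with gag than with control (*COL1A2*, *SH2D3C*, *HSPA1A*, *OLIG2*, *TRIB1*, *KLF6* and *C15orf39*), against 119 of 17175 genes (0.693%), and 0 were called lower, against 66 (0.384%). The log2 difference between gag and control was 3.71 for *COL1A2*, 1.21 for *SH2D3C*, 0.99 for *HSPA1A*, 0.78 for *OLIG2*, 0.71 for *TRIB1*, 0.69 for *KLF6* and 0.37 for *C15orf39*. The other 7 lay between -0.04 for *ADAT3* and 0.67 for *GPR3* and were not called. These counts of calls rest on single libraries too, since the whole comparison of gag with control called 34, 58 and 425 genes without control replicates 1, 2 and 3, 32 and 91 without gag replicates 1 and 2, and 280 without gag-pol replicate 3.

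**Figure D5:**
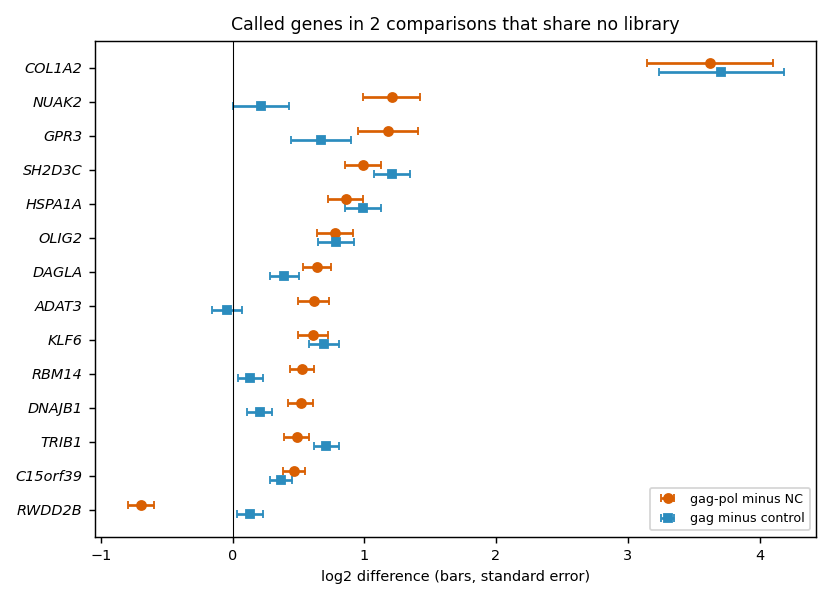
Log2 difference (x axis) of 14 of the 15 called genes between gag-pol and NC (circles, gag-pol minus NC) and between gag and control (squares), 2 comparisons that share no library, with standard errors as bars. *COL1A2*, *SH2D3C*, *HSPA1A*, *OLIG2*, *KLF6* and *TRIB1* lie to the right in both, *ADAT3* is at -0.04 and *RWDD2B* at 0.13 between gag and control.

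Against control, the called genes showed different arrangements. These comparisons share the NC or gag-pol libraries with the comparison of the constructs and are given side by side as levels. Of the 14 genes lower with NC, 12 were called between gag-pol and control and 2 between NC and control, *ADAT3* and *TRIB1*. *TRIB1* differed from control by 0.87 with gag-pol and 0.39 with NC on the log2 scale, so that NC was intermediate. *ADAT3* had a log2 difference to control of -0.25 with gag-pol and -0.87 with NC, and NC was the lowest of the 4 groups. For *NUAK2* the log2 difference to control was 0.83 with gag-pol and -0.37 with NC, and for *GPR3* it was 0.63 with gag-pol (adjusted p = 0.068 in edgeR) and -0.54 with NC (adjusted p = 0.13 in edgeR). *DAGLA* stood at 0.63 with gag-pol and -0.02 with NC, and *DNAJB1* at 0.41 with gag-pol and -0.10 with NC. Between gag-pol and gag, 2 of the 14 were called, *RBM14* with a log2 difference of 0.52 (adjusted p = 0.0049 in edgeR) and *C15orf39* with 0.31 (adjusted p = 0.028 in edgeR). *RBM14* had log2 differences to control of 0.13 with gag and 0.13 with NC, neither of which was called, and was higher than control with gag-pol (log2 difference 0.65, adjusted p = 0.00023 in edgeR). *RWDD2B* had a log2 difference of -0.97 between gag-pol and gag and of -0.83 between gag-pol and control, while NC differed from control by -0.14 (adjusted p = 0.38 in edgeR).

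In the opposite direction, many genes of the integrated stress response had higher values with NC, without a call in edgeR. Of 24 listed targets of ATF4 and CHOP and related genes, edgeR called 0, 12 (50%) were higher at an unadjusted p-value under 0.05, against 4.13% of all genes, and 2 were lower, with a median log2 difference of 0.21. *NUPR1*, a small stress-induced chromatin protein, stood at 560.0, 668 and 535 with gag-pol and 1188, 1076 and 772 with NC. *DDIT3*, which encodes CHOP, stood at 1399.9, 1418 and 1366 with gag-pol and 1933, 1905 and 1627 with NC. The NC libraries of both were all above the gag-pol libraries, but the log2 differences of 0.76 and 0.38 each had an adjusted p of 0.060 in edgeR. The mean of *NUPR1* was 1134 in control cells and 1022 with gag, against 588 with gag-pol and 1012 with NC. For *DDIT3* the mean was 1650 in control cells and 2162 with gag, against 1395 with gag-pol and 1822 with NC. Gag-pol was thus the lowest group for both genes. *PCK2*, the mitochondrial phosphoenolpyruvate carboxykinase, had a log2 difference of 0.46 (adjusted p = 0.060 in edgeR) and *ASNS*, asparagine synthetase, 0.29 (adjusted p = 0.31 in edgeR). For these, NC had the highest mean of the groups, at 2655 against 1837 in control cells for *PCK2* and 16049 against 11675 for *ASNS*. *PPP1R15A*, the regulatory subunit that dephosphorylates eIF2 alpha, went the other way, with 10991, 7772 and 8444 with gag-pol and 5243, 6012 and 7016 with NC (log2 difference -0.57, adjusted p = 0.28 in edgeR). *ATF4* was at -0.09 on the log2 scale. DESeq2 called 3 members higher, *NUPR1*, *DDIT3* and *PCK2*. With each library left out in turn, the list's median ran from 0.13 to 0.27 and the number of members higher at an unadjusted p-value under 0.05 from 4 (without gag-pol replicate 1) to 15, and without the replicate number in the model that number was 2.

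The alpha-arrestins, which include the glucose-responsive *TXNIP*, had lower values with NC in part, without a call in edgeR. DESeq2 called *ARRDC3* and *TXNIP* lower. *TXNIP* had a normalized count of 1298, 1395 and 1081 with gag-pol and 863, 1180.3 and 798 with NC, and the log2 difference was -0.42 (95% interval -0.63 to -0.21, adjusted p = 0.10 in edgeR). The difference for *ARRDC2* was -0.37 (adjusted p = 0.15 in edgeR) and for *ARRDC3* -0.70 (adjusted p = 0.33 in edgeR), while *ARRDC1* and *ARRDC4* were at -0.02 and -0.0018. Over the 5 members tested, edgeR called 0 and 3 (60%) were lower at an unadjusted p-value under 0.05, against 5.78% of all genes, with a median log2 difference of -0.37.

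Genes of axon guidance and extension were examined because the study considered them. Of 60 tested genes edgeR and DESeq2 called 0, and at an unadjusted p-value under 0.05 in edgeR 2 (3.33%) were higher and 4 (6.67%) lower, shares near the 4.13% and 5.78% of all genes. The median log2 difference was 0.025. The 95% interval lay inside ±0.5 for 51 of the 60 (85.0%), near the 79.9% of all genes with a mean of at least 1 log2 CPM. *DCLK1*, a microtubule-binding kinase of neurons, stood at 984, 1339 and 980.1 with gag-pol and 926, 1529 and 1078 with NC. Its log2 difference was 0.08, with a 95% interval from -0.16 to 0.32. The guidance receptor *PLXNA4* had 0.11 (95% interval -0.21 to 0.44), the semaphorin *SEMA5B* 0.07 (-0.31 to 0.45) and the ligand *SLIT3* 0.02 (-0.27 to 0.32). *C9orf72*, a regulator of membrane traffic, had -0.06 (-0.39 to 0.27) and *WNT3A* had -0.16 (-0.45 to 0.14). For all 6 genes the interval stayed inside ±0.5 on the log2 scale, and the replicates of each construct spread over a wider range than separated the constructs.

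Lists of housekeeping processes had narrow intervals in the main. The 95% interval lay inside ±0.5 for 32 of 32 genes of mitosis, 34 of 34 tested genes of oxidative phosphorylation, 35 of 36 genes of DNA replication, 41 of 44 proteasome subunits, 29 of 30 genes of sterol and fatty acid synthesis, 28 of 31 SR and hnRNP splicing factors, 19 of 20 genes of the unfolded protein response and 5 of 5 genes of the ubiquilins and *PEG10* turnover. Beside these counts, the share inside ±0.5 was 79.9% of all genes with a mean of at least 1 log2 CPM and 96.6% of those with at least 5. It was 93.2% for the proteasome and 90.3% for the splicing factors. The lists were not compared with genes of matched expression level. None of the members of these 8 lists was called by edgeR. The median log2 differences of the lists lay between -0.05 for DNA replication and 0.13 for sterol synthesis. At an unadjusted p-value under 0.05, higher values were seen for 5 of the 30 genes of sterol and fatty acid synthesis (16.7%), 4 of the 34 of oxidative phosphorylation (11.8%), 2 of the 20 of the unfolded protein response (10%), 2 of the 36 of DNA replication (5.56%) and 1 of the 44 of the proteasome (2.27%), against 4.13% of all genes. Lower values were seen for 6 of the 36 genes of DNA replication (16.7%) and 3 of the 31 splicing factors (9.68%), against 5.78% of all genes. The log2 difference was above 0 for 32 of the 34 genes of oxidative phosphorylation, with a median of 0.11. DESeq2 called 1 gene in these 8 lists, *XBP1*, higher with NC. The interval was wider for the 30 interferon-stimulated genes, where 11 lay inside ±0.5 and the median was -0.04, and for the 34 genes of glycolysis and hypoxia, where 27 did and the median was 0.05.

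Genes singled out in the study or by the size of their change against control were also compared between the constructs. *SLC44A2*, a choline transporter, stood at 2219, 2397 and 2207 with gag-pol and 2073, 2327 and 2341 with NC, against 5631, 4707 and 4181 in control cells. Its log2 difference between the constructs was -0.02 (95% interval -0.21 to 0.18). The amino acid transporter *SLC43A2* had -0.21 (-0.47 to 0.05), the cation channel *TRPM4* 0.25 (0.03 to 0.47), *C11orf96* -0.21 (-0.41 to -0.01) and *PCYOX1L* 0.14 (-0.13 to 0.41), none of which was called. The differences were larger but not called for *SCG3*, a granin of secretory granules, with 1.16 (adjusted p = 0.13 in edgeR), for the natriuretic peptide clearance receptor *NPR3* with 0.92 (adjusted p = 0.12 in edgeR) and for *ANKRD31* with 1.17 (adjusted p = 0.090 in edgeR). *NPR3* stood at 89.6, 78.0 and 68.8 with gag-pol and 162, 103 and 202 with NC without overlap, and the control libraries, at 250.2, 226 and 478, were above both. The log2 difference was 0.67 for *TCEANC*, 0.28 for the lysyl oxidase *LOXL4*, 0.24 for the synaptic vesicle protein *SYN1*, -0.50 for the scaffold *CASS4*, -0.31 for *LINC00346* and -0.33 for *DNAH17-AS1*, whose count may hold reads of the gene on the other strand because the strand setting is not given. Adjusted p-values of these 6 in edgeR ran from 0.35 to 0.78.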

How the data were processed

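Per the labels and the study's methods, poly(A) RNA libraries were made with the Tecan Universal Plus mRNA-Seq kit, and the authors aligned reads to GRCh38.p13 with STAR 2.7.3, used SAMtools 1.8 and counted genes with featureCounts. The deposited values are raw counts per gene symbol, without normalization, for 26485 genes in 12 libraries, of which 3535 had no count. The annotation, strand setting and handling of multiply mapped reads are not given in the sources used here.

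Counts were fitted with edgeR 4.0.16 (R 4.3.3, limma 3.58.1): TMM, a filter on low counts (minimum 10, minimum total 15, by group), and the robust quasi-likelihood test with construct and replicate number as terms over all 12 libraries, leaving 6 residual degrees of freedom. The spread beyond counting noise was 10.7% (biological coefficient of variation), and tested genes held at least 99.95% of each library's counts. P-values were adjusted by Benjamini-Hochberg over 17176 genes (threshold 0.05). SEs are the log2 difference over the square root of F, and 95% intervals use the fit's degrees of freedom. The authors modelled harvest date, which is not given per library in the sources used here, so the replicate number was used. Deviations from the construct means correlated at 0.25 to 0.80 in all 18 pairs of libraries with the same number and at -0.75 to 0.14 in the others, so the numbers were taken to pair libraries. Replicates differed by more than sampling noise (chi-square per degree of freedom 32.9 to 110).

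Named by rule were *PEG10*, called genes reaching a mean of 1 log2 CPM with 1 direction in all 3 pairs (the 12 largest each way), neighbors of *PEG10*, and genes named for this experiment elsewhere. *C15orf39*, *HSPA1L*, *BAG3*, *FOS*, *EGR1*, *JUN*, *JUNB*, *FOSB*, *DUSP6*, *ARRDC2*, *DDIT3*, *NUPR1*, *PCK2*, *ASNS*, *PPP1R15A* and other list members given by their log2 difference alone fall outside it, having been picked with their values in view. Of the 15 called genes, 1 is not reported here. The comparison, members and gene lists were chosen with earlier results of these data known. Positions are from GENCODE release 44 and promoters from RefSeq. Scripts were tested on simulated data. Alternatives were DESeq2 1.42.0, other normalization factors, *PEG10* left out, other filters, no replicate number, the 6 libraries alone, no robust estimation, thinned counts, a minimum log2 difference of 0.5, and each library and replicate number left out.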

Additional observations from a re-analysis of the deposited data

How the results depend on the processing

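The direction of each of the 15 called genes did not change under any alternative in which the gene was tested. The number of genes called between NC and gag-pol, 15 as reported, depended on the processing. It was 213 with DESeq2 (74 higher, 139 lower), 8 with upper-quartile factors, 128 with no low-count filter (17 higher, 111 lower), 9 with at least 10 counts in every library, 44 with only the 6 NC and gag-pol libraries and the replicate block (7 higher, 37 lower) and 24 without robust estimation. The cause was not tested. It was 15 with DESeq2's size factors, 17 with *PEG10* left out, 19 with counts thinned to the smallest library and 13 with an absolute log2 difference of at least 0.5. With a library or a replicate number left out it ran from 0 to 532, the lowest without NC replicate 1 and the highest without replicate 3. Without the replicate block, edgeR called 0 genes (404 at an unadjusted p-value under 0.05), and the number of genes with an interval inside ±0.5 was 7118 in place of 10715. Under the other alternatives that number stayed between 9265 and 10870. For the other pairs, leaving out a library gave 122 (without gag replicate 1) to 1849 (without control replicate 3) genes between gag-pol and gag, and 939 (without gag replicate 1) to 3555 between NC and gag. Without replicate 1 the numbers were 12 and 341. Without the replicate block edgeR called 0 genes in both (917 and 1891 at an unadjusted p-value under 0.05) and 1 between gag and control (600 at an unadjusted p-value under 0.05). No setting moved the median log2 difference of all genes by more than 0.018. With 3 replicates per construct, the intervals allow differences of over 1.41-fold in every gene below 1 log2 CPM, and a gene that was not called is not thereby alike with both constructs.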

Other observations

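Some genes lay just past the threshold, and those named here were chosen after their values were seen. At an adjusted p-value under 0.1, 65 genes differed between NC and gag-pol in edgeR's quasi-likelihood test, 10 higher and 55 lower with NC. *CSRNP1*, a nuclear protein induced by AXIN1, had a normalized count of 1654, 1143 and 1394 with gag-pol and 675, 672 and 1126 with NC, with no overlap and a log2 difference of -0.80 (adjusted p = 0.060 in edgeR). *PNRC1*, a nuclear receptor coregulator, stood at 3128, 2427 and 2985 with gag-pol and 1533, 1500.3 and 2513 with NC, and its groups overlapped through NC replicate 3 (log2 difference -0.67, adjusted p = 0.057 in edgeR). In the other direction, the cysteinyl-tRNA synthetase *CARS* stood at 2886, 2756 and 2650.5 with gag-pol and 4520.0, 3651 and 3099.6 with NC without overlap (log2 difference 0.43, adjusted p = 0.060 in edgeR).

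Among the other domesticated gag genes, 8 of 22 listed were tested, 0 were called and the median log2 difference was -0.02. *ARC*, a neuronal immediate early gene whose gag-like protein forms capsids, stood at 3705, 2897 and 4058 with gag-pol and 1056, 1584 and 2453 with NC. The groups did not overlap, and the log2 difference of -1.12 had an SE of 0.23 and an adjusted p of 0.18 in edgeR. DESeq2 called *ARC* and *ZCCHC12* lower with NC.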
